A study of Sus scrofa with 8 samples.

Results

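The microRNAs described here are those of the miR-532, miR-188, miR-362, miR-500 and miR-660 cluster, measured in the corpus luteum of the pig, a temporary ovarian gland that makes progesterone after ovulation. They were chosen by name: every non-control target of the array named miR-188, miR-362, miR-500, miR-501, miR-502, miR-532 or miR-660, with any species prefix and any arm, was taken. This gave 11 of the 686 targets on the array, 4 of them with porcine names (ssc), 5 with human (hsa) and 2 with cattle names (bta). No target was named miR-501. Total RNA of 8 crossbred gilts aged 6 to 8 months was hybridised to 1-colour Agilent miRNA arrays, 1 animal per array. In the cyclic group (4 arrays) the gilts had not been inseminated and luteal tissue was taken on day 14 of the estrous cycle. In the pregnant group (4 arrays) the gilts had been inseminated 12 and 24 h after estrus was seen, and tissue was taken on day 14 of pregnancy. All gilts came from a single commercial herd, and the labels name no other treatment.

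A microRNA is cut from a hairpin precursor whose arms give a 5p and a 3p strand, and the strand that is loaded into an Argonaute protein represses messenger RNAs that pair with its seed. In mammals the members of this cluster lie close together on the X chromosome and are thought to be transcribed with the chloride channel gene CLCN5, in whose intron the human copies lie. In the RefSeq table of the pig assembly Sscrofa11.1, MIR532, MIR500 and MIR362 follow each other on chromosome X with no other gene between them. USP27X, a deubiquitinase gene, is the record before them and CLCN5 the record after them. The remaining numbers of the cluster had no record of that name in the table.

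On each array, 22.8% to 28.8% of the spots were well above background and 0 were saturated. Signals were background-subtracted by the scanner software, divided by the array's 75th percentile over the targets detected on all arrays, and put on a log2 scale, so that a value of 0 is the signal at that percentile. A scaled signal lower than 0.0344 (log2 −4.86) was set to that floor. Each target was read from the brightest of its probes, and because probes bind their targets with different strength, the levels of different targets do not order their amounts; where 2 targets are set against each other below, only the change of their signal ratio between the groups is compared. A target detected on at least 4 of the 8 arrays was tested. The arrays came on 3 slides: slide 1 held pregnant replicates 1 and 2, slide 2 held cyclic replicates 1 and 2, and slide 3 held the 4 arrays numbered 3 and 4. Slides 2 and 3 were scanned on a different day from slide 1. The tissue label was checked against marker miRNAs: both strands of the gonad-enriched miR-202 and of the endothelial miR-126 were detected, while the 6 muscle targets (miR-1, miR-133 and miR-206) and the 2 targets of the liver miRNA miR-122 were detected on 0 arrays.

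Of the 11 cluster targets, 8 were tested. These were both strands of miR-532, ssc-miR-362 and hsa-miR-362-3p, 2 entries for miR-500 (ssc-miR-500 and bta-miR-500), bta-miR-188 and hsa-miR-660-5p. The other 3, hsa-miR-188-3p, hsa-miR-502-3p and hsa-miR-502-5p, were not well above background on any array. Their probes read between −2.45 and 2.65 intensity units, where the median of the negative control spots lay between 0.437 and 1.29. Detection was complete, on 8 of 8 arrays, for miR-532-3p, miR-532-5p, bta-miR-500, hsa-miR-362-3p, hsa-miR-660-5p and bta-miR-188. The 2 remaining tested members were dim. ssc-miR-362 (8.60 to 16.4 intensity units) was not detected on cyclic replicate 3, and ssc-miR-500 (8.67 to 17.0) was not detected on pregnant replicate 4. The names ssc-miR-500, bta-miR-500, ssc-miR-362 and bta-miR-188 give no arm, so entries that share a number may be different strands of a hairpin.

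The comparison of pregnant with cyclic glands asked which members differ between a gland that is kept and one near the end of its cycle. The 3p strand of miR-532 was 1.62-fold higher in pregnancy and was the 1 member of 8 that passed the test. Its sister strand, miR-532-5p, read 1.30-fold higher, and the cattle entry bta-miR-500 1.24-fold higher, and neither passed. The other 5 members had log2 differences between −0.15 and 0.06. By the limma test with Benjamini-Hochberg adjustment over all 212 tested targets, 11.3% of the targets passed (24 targets), 5.19% as higher in pregnancy (11 targets) and 6.13% as lower (13 targets). Among the members, 12.5% passed (1 of 8 higher, 0 lower), so their share lay near the share of all targets. An unadjusted p below 0.05 was found in 34.4% of all targets and in 2 of the 8 members.

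miR-532-3p, a strand studied mainly in tumour cells and inflammation, had log2 values of −2.33, −2.81, −2.85 and −2.65 on cyclic replicates 1 to 4. On pregnant replicates 1 to 4 it read −2.11, −1.71, −2.28 and −1.77. The groups did not overlap, and cyclic replicate 1 stood nearest to the pregnant arrays. The group means were −2.66 ± 0.24 and −1.97 ± 0.27 (SD, n = 4 each), a difference of 0.70 ± 0.18 (SE; 95% interval 0.29 to 1.10; limma adjusted p = 0.0323). By unadjusted p it ranked 19th of the 212 tested targets. Of its 4 probes, the pair detected on all arrays gave differences of 0.70 and 0.67, and the other pair was detected on none.

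**Figure D1:**
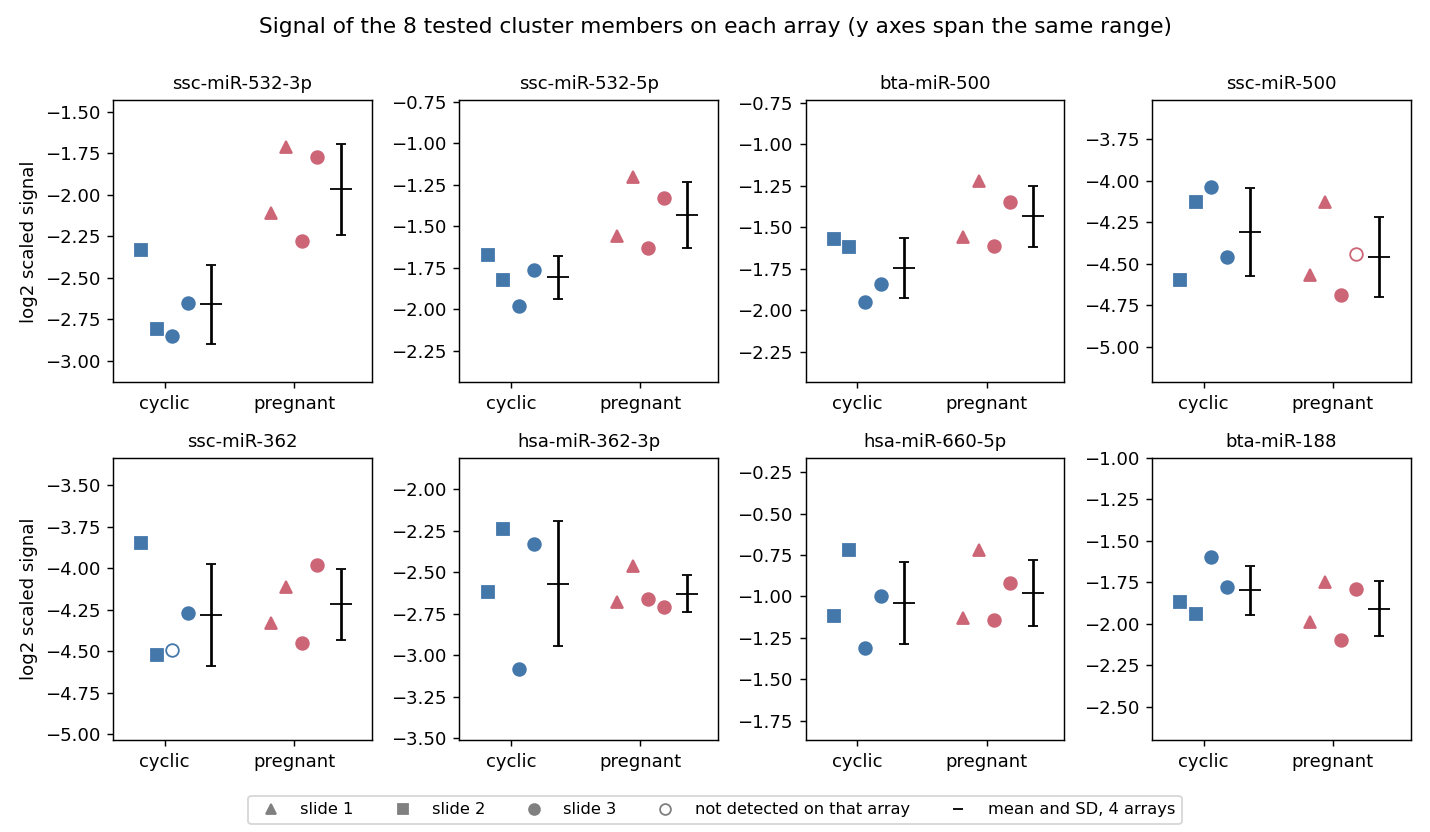
Log2 scaled signal (y axis) of the 8 tested members on each of the 8 arrays, by group (x axis), with the slide as the marker shape, open markers where a member was not detected on that array, and the mean and SD of 4 arrays beside each group. The groups do not overlap for miR-532-3p and miR-532-5p, and they overlap for the other 6 members.

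miR-532-5p, known in tumour cells for repressing the transcription factor gene RUNX3, read −1.67, −1.82, −1.98 and −1.76 on cyclic replicates 1 to 4. The pregnant arrays read −1.56, −1.20, −1.63 and −1.33. The groups did not overlap here either, although cyclic replicate 1 and pregnant replicate 3 lay close together. The means were −1.81 ± 0.13 and −1.43 ± 0.20 (SD, n = 4 each), and the difference of 0.38 ± 0.15 (95% interval 0.05 to 0.70) did not pass (limma adjusted p = 0.11, unadjusted p = 0.0259). Its probes gave 0.38 and 0.32. In 9.91% of all tested targets the 4 pregnant arrays lay above the 4 cyclic ones, and this held for 25% of the members (2 of 8), both of them strands of the same hairpin.

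bta-miR-500, the cattle entry of a miRNA studied mainly in cancers, read −1.57, −1.62, −1.95 and −1.84 on cyclic replicates 1 to 4. On the pregnant arrays it read −1.56, −1.22, −1.61 and −1.35. Cyclic replicate 1 lay above pregnant replicate 3, so the groups overlapped. The difference of 0.31 ± 0.15 (95% interval −0.02 to 0.64) did not pass (limma adjusted p = 0.173).

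The porcine entry of the same number, which may or may not be the same strand, had a difference of the opposite sign. ssc-miR-500 read −4.60, −4.13, −4.04 and −4.46 in cyclic glands and −4.57, −4.13, −4.69 and −4.44 in pregnant ones. These values lie just above the floor, and the groups overlapped widely. The difference was −0.15 ± 0.18 (95% interval −0.56 to 0.25, limma adjusted p = 0.655), and it became 0.02 under quantile normalization and with the authors' table, and 0.15 with scaling over all probes. Of its 2 probes, 1 was detected on 0 arrays.

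Both entries for miR-362, a miRNA linked in tumours to the NF-kappaB regulator CYLD, lay near no difference. hsa-miR-362-3p read −2.62, −2.24, −3.08 and −2.33 in cyclic glands and −2.68, −2.46, −2.66 and −2.71 in pregnant ones. The cyclic arrays reached beyond all 4 pregnant arrays on both sides, with SDs of 0.38 and 0.11. Its difference was −0.06 ± 0.19 (95% interval −0.49 to 0.37, limma adjusted p = 0.881), and it became 0.24 with scaling over all probes. ssc-miR-362 read −3.85, −4.52, −4.49 and −4.27 in cyclic and −4.33, −4.11, −4.45 and −3.98 in pregnant glands. Cyclic replicate 1 was the highest of all 8 arrays, and the difference was 0.06 ± 0.19 (95% interval −0.35 to 0.48, limma adjusted p = 0.871). It became −0.02 without scaling between arrays, and its second probe gave −0.06.

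For hsa-miR-660-5p, a strand that represses the p53 regulator gene MDM2 in lung cancer cells, the cyclic arrays read −1.12, −0.72, −1.31 and −1.0. The pregnant arrays read −1.13, −0.72, −1.14 and −0.92, within the range of the cyclic ones. The difference was 0.06 ± 0.16 (95% interval −0.29 to 0.41, limma adjusted p = 0.852), and its second probe gave −0.02. bta-miR-188, whose mammalian counterpart is known for steering bone marrow stem cells between bone and fat fates, read −1.87, −1.94, −1.60 and −1.78 in cyclic glands and −1.99, −1.75, −2.10 and −1.79 in pregnant ones. Its difference was −0.11 ± 0.14 (95% interval −0.43 to 0.21, limma adjusted p = 0.704), and it became 0.19 with scaling over all probes. For hsa-miR-660-5p, hsa-miR-362-3p and bta-miR-188, a change of 0.70 log2 units in either direction lay outside the 95% interval in the reported setting. The same held for bta-miR-500. That size is the point value of miR-532-3p, whose own interval (0.29 to 1.10) overlapped those of bta-miR-500 (−0.02 to 0.64), hsa-miR-660-5p and hsa-miR-362-3p. With scaling over all probes these members read higher, at 0.61 ± 0.19, 0.36 ± 0.19 and 0.24 ± 0.23 (SE).

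**Figure D2:**
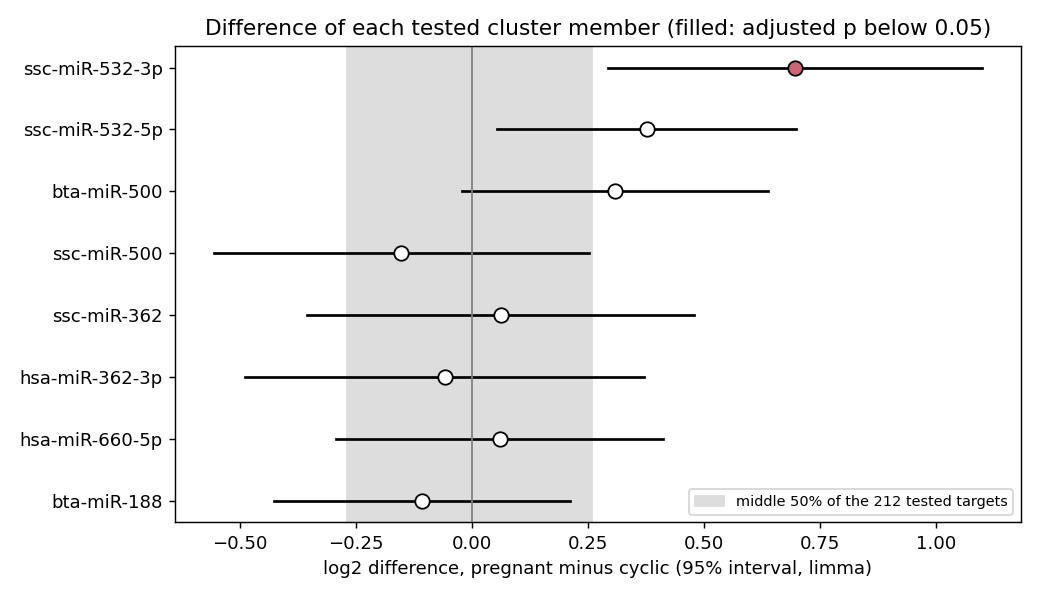
Log2 difference (x axis, pregnant minus cyclic) of the 8 tested members with its 95% interval from limma, filled where the adjusted p was below 0.05, over a band that holds the middle 50% of the 212 tested targets (−0.27 to 0.26). miR-532-3p, at 0.70, is the filled point, and miR-532-5p (0.38) and bta-miR-500 (0.31) also lie to the right of the band.

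Over the 8 tested members, 5 differences were positive and 3 negative, with a median of 0.06. Over all tested targets 50.5% were positive and the median was 0.00. Beyond the 3 pairs of entries described next, the difference between members was not tested.

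Some members share a number, and their signals were compared within each array, where the scaling of the array cancels. Over 3 such pairs, an exact 2-sided permutation test of the 4 pregnant against the 4 cyclic arrays could give no p below 0.0286. For miR-532, the 3p minus the 5p value was −0.67, −1.0, −0.87 and −0.88 on cyclic replicates 1 to 4 and −0.55, −0.51, −0.64 and −0.43 on the pregnant ones. All 4 pregnant arrays lay above all 4 cyclic arrays, and the 3p minus 5p value averaged 0.32 log2 units higher in pregnancy (exact permutation p = 0.0286, the smallest possible; adjusted over the 3 pairs p = 0.0857). After adjustment it did not pass. With normexp background correction, which here added an offset of 50 intensity units, the value was 0.10 (exact permutation p = 0.2, adjusted p = 0.3). An added constant lowers log2 differences, more so for dim signals, and the probe used for miR-532-3p read 26.8 to 72.2 units. The part of the offset in this lower value was not tested. In 8 of the 12 other settings that used all 8 arrays the unadjusted p was again the smallest possible. Most of these 8 changed only the scaling factor, floor or detection filter, which left the value at 0.32 and could not alter it. Quantile normalization (0.37) and the authors' table (0.36) also kept the smallest p. The total gene signal (0.36), the mean over detected probes (0.33) and the second probe (0.35) gave unadjusted exact permutation p = 0.0571. The probe signals do not give the ratio of the strands themselves, since each strand has its own probe.

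For the 2 entries of miR-500, whose arms the names do not give, the within-array difference averaged 0.46 log2 units higher in pregnancy. bta-miR-500 minus ssc-miR-500 was 3.03, 2.5, 2.09 and 2.62 in cyclic glands and 3.01, 2.91, 3.08 and 3.09 in pregnant ones. These differences are taken against ssc-miR-500, which lay near the floor on every array and was not detected on the array that gave 3.09. Cyclic replicate 1 lay among the pregnant arrays, and this did not pass (exact permutation p = 0.0857, adjusted p = 0.129). With double the floor, where ssc-miR-500 has no difference, the value was 0.31, that of bta-miR-500 alone; it was 0.18 with normexp, 0.26 with quantile normalization, 0.28 with the authors' table and 0.73 within slide 3. Without cyclic replicate 1 it passed for miR-500 (0.62, exact permutation, adjusted p = 0.0429), as it did for miR-532 (0.38, adjusted p = 0.0429). For the 2 entries of miR-362 the average was 0.12 higher in pregnancy (exact permutation p = 0.686, adjusted p = 0.686), with cyclic values from −2.27 to −1.23 and pregnant values from −1.79 to −1.27.

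**Figure D3:**
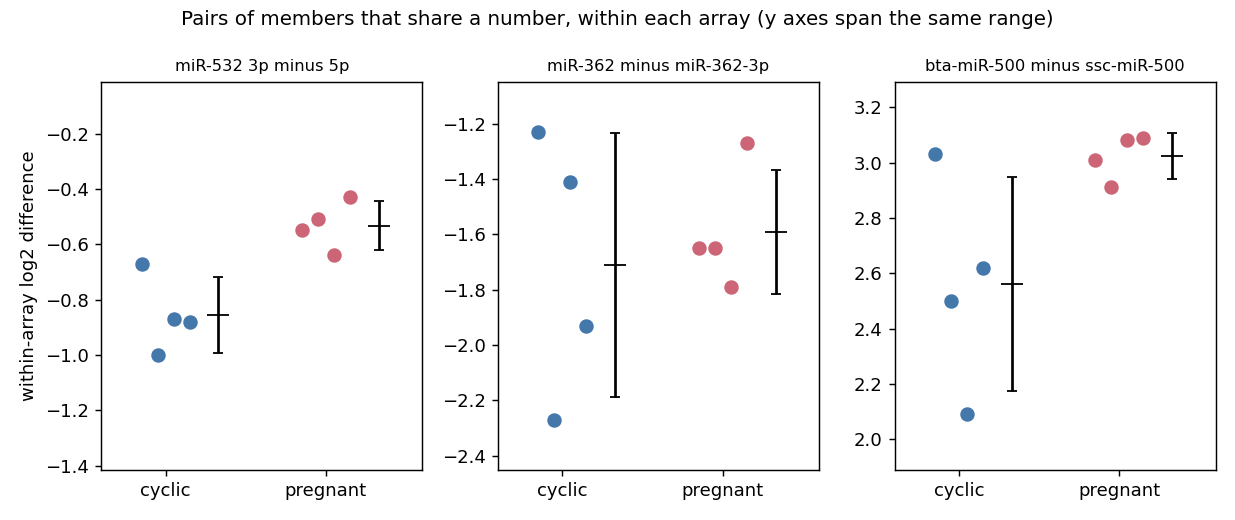
Within-array log2 difference (y axis) between 2 members that share a number, by group (x axis), with points for the 4 arrays of a group and the mean and SD beside them. For miR-532 the pregnant values (−0.64 to −0.43) lie above the cyclic values (−1.0 to −0.67), and for miR-362 and miR-500 the groups overlap.

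The call of miR-532-3p was not firm. It passed in 13 of 28 other settings. Its difference ran from 0.31 with normexp background correction and its offset (limma adjusted p = 0.235) to 1.00 with scaling over all probes (limma adjusted p = 0.00801). That scaling raised the median of all tested targets by 0.30. All 28 differences were positive, but many of these settings could not change the sign. The groups did not overlap, so leaving out arrays could not reverse it. The floor settings, detection filters, variance models and replicate block left the difference at 0.70. Of the 8 fits that left out 1 array miR-532-3p passed in 2, those without cyclic replicate 1 (0.80, adjusted p = 0.00587) and without pregnant replicate 3 (0.80, adjusted p = 0.0377). In these fits 81 and 11 of the 212 tested targets passed. miR-532-3p did not pass without cyclic replicate 2 (0.65), 3 (0.63) or 4 (0.70), or without pregnant replicate 1 (0.74), 2 (0.61) or 4 (0.63), with adjusted p from 0.0675 to 0.107. Within slide 3, the 1 slide that held both groups, the difference was 0.73 ± 0.27 with 2 arrays per group (adjusted p = 0.159), where 4.25% of all targets passed. With slide as a block, which rests on the same arrays, it was 0.73 ± 0.29 (adjusted p = 0.136), and 12.7% of all targets passed. Among the 6 arrays scanned on the day of slides 2 and 3 it was 0.64 ± 0.26 (adjusted p = 0.231), where 0.943% of all targets passed.

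**Figure D4:**
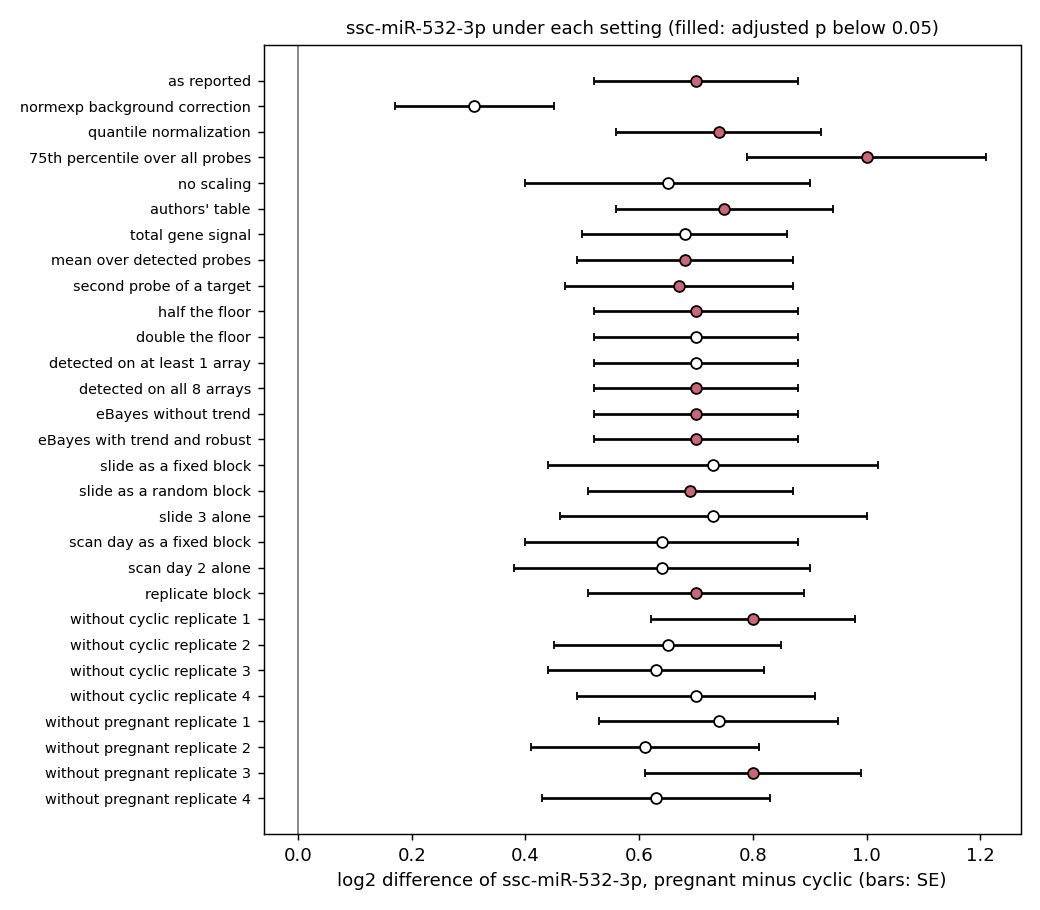
Log2 difference of ssc-miR-532-3p (x axis, pregnant minus cyclic, bars are SE) under the reported setting and 28 others (y axis), filled where the adjusted p was below 0.05. All 29 values lie above 0, between 0.31 and 1.00, and 13 of the 28 other settings are filled. The groups do not overlap, so leaving out arrays could not change the sign, and several settings leave the value at 0.70.

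miR-532-5p passed in 2 of 28 other settings, without cyclic replicate 1 (0.42, limma adjusted p = 0.0456) and with scaling over all probes (0.68, limma adjusted p = 0.0161). bta-miR-500 passed in 1, with scaling over all probes (0.61, limma adjusted p = 0.0273). Within slide 3 miR-532-5p and bta-miR-500 differed by 0.39 and 0.41, and among the 6 arrays of 1 scan day by 0.32 and 0.26. Without cyclic replicate 1, 81 of the 212 tested targets passed, in place of 24. Over all targets, scaling over all probes called 55 higher and 7 lower, in place of 11 and 13. Quantile normalization called 14 higher and 9 lower, and no scaling 3 and 6.

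Cell markers also differed between these arrays. The summed scaled signal of the 2 gonad targets, both strands of miR-202 (2 tested, 0 passed), was 0.54, 0.21, 0.222 and 0.239 on cyclic replicates 1 to 4 and 0.389, 0.626, 0.367 and 0.343 on the pregnant ones. In this sum cyclic replicate 1 lay among the pregnant arrays, and the other 3 cyclic arrays lay below all of them. The strands had differences of opposite sign, 0.74 ± 0.33 for ssc-miR-202-3p and −0.28 ± 0.17 for ssc-miR-202-5p (SE). The 5p strand was detected on 5 arrays and lay near the floor (mean log2 −4.43, against −1.78 for the 3p strand). The sum therefore mostly follows the 3p strand. The summed scaled signal of the 8 leukocyte targets (miR-142, miR-150, miR-155 and miR-223; 5 tested, 1 lower, 3 never detected) was 0.653, 1.85, 1.74 and 4.62 on cyclic replicates 1 to 4 and 0.633 to 0.762 on the pregnant arrays. Cyclic replicate 1, the cyclic array nearest to the pregnant ones for miR-532-3p and miR-532-5p, lay among the pregnant arrays here too. It read −3.16 for the neutrophil and monocyte miRNA hsa-miR-223-3p, against −0.33, −0.02 and 1.74 on the other cyclic arrays. For the 6 fibroblast targets (miR-199 and miR-214; 0 passed) the sum ran from 3.61 to 8.52 in cyclic and from 3.89 to 4.35 in pregnant glands, lowest on cyclic replicate 1. For the 4 erythroid targets (miR-144, miR-451 and miR-486; 2 tested, 0 passed) it ran from 1.37 to 7.29 in cyclic and from 1.36 to 6.26 in pregnant glands, highest on cyclic replicate 1. For the 2 endothelial targets it ran from 6.29 to 7.49 and from 7.1 to 8.73, and for the 4 smooth muscle and pericyte targets (miR-143 and miR-145) from 1.25 to 1.87 and from 1.28 to 1.7, with 0 passing in either list. The part of these cells in the values of miR-532 was not tested, and in bulk tissue fewer cells of a type cannot be told apart from less RNA per cell.

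Within groups, the members that read higher in pregnancy also varied together, and some members whose group means hardly differed varied with them. After the mean of each group was removed, Pearson's r over the 8 arrays was 0.930 between the strands of miR-532, 0.895 between miR-532-5p and bta-miR-500, and 0.798 between miR-532-3p and bta-miR-500. All 8 arrays stood in the same order in both strands of miR-532. ssc-miR-362 followed miR-532-3p with r = 0.939 within groups, and miR-532-5p with 0.774, while its group means hardly differed. Its values (log2 −4.52 to −3.85) lay near the floor of −4.86, and it was not detected on cyclic replicate 3. hsa-miR-660-5p, whose group means also hardly differed, gave 0.759 with bta-miR-500, 0.675 with miR-532-5p and 0.377 with miR-532-3p. hsa-miR-362-3p followed hsa-miR-660-5p (r = 0.815) but not miR-532-3p (0.186), and bta-miR-188 and miR-532-3p gave 0.406. These values are descriptions over 8 arrays that share the scaling of each array.

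Outside the cluster, the tested targets with the highest Pearson's r with miR-532-3p over the 8 arrays were ssc-miR-424-3p (0.965), ssc-miR-99b (0.956), ssc-miR-7134-3p (0.923), ssc-miR-744 (0.922) and ssc-miR-423-5p (0.915). With group means removed these values were 0.871, 0.837, 0.748, 0.793 and 0.707. For miR-532-5p the targets with the highest r were ssc-miR-424-3p (0.900), ssc-miR-99b (0.892), ssc-miR-542-5p (0.891), ssc-miR-503 (0.877) and ssc-miR-450a (0.874). Without the group means they fell to 0.704, 0.679, 0.674, 0.653 and 0.688. miR-424, miR-503, miR-542 and miR-450 come from another X-linked locus. ssc-miR-424-3p was detected on 5 arrays, 1 cyclic and 4 pregnant, and the other 3 cyclic arrays were at the floor.

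The cluster was set beside other miRNAs known to lie on the mammalian X chromosome. Of 51 such targets on the array, 18 were tested, with a median difference of 0.12 against 0.00 over all tested targets. Of the 18, 5 were called higher and 0 lower, where over all tested targets 5.19% were called higher and 6.13% lower. All 5 came from the miR-424 and miR-503 locus, of which miR-424 and miR-503 restrain the cell cycle: miR-542-3p (0.73 ± 0.21), miR-450c-5p (0.82 ± 0.21), miR-542-5p (1.03 ± 0.20) and miR-503 (1.39 ± 0.32), with limma adjusted p from 0.0111 to 0.0455, and miR-424-3p. The last entered the test through its 4 pregnant arrays and was at the floor on 3 cyclic arrays, so it has no measured size; without it 4 of the 5 tested targets of this locus passed, with a median of 0.82. miR-450a (0.73 ± 0.23) did not pass. The 12 tested X-linked targets of other loci held 0 that passed, with 5 positive and 7 negative values and a median of −0.07. Among them were ssc-miR-374a-5p (−0.14), mmu-miR-20b-5p (−0.27) and ssc-miR-361-5p (0.31), and hsa-miR-223-3p (−2.29 ± 0.76). The division by locus was made after the values were seen, and the difference between the loci was not tested.

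**Figure D5:**
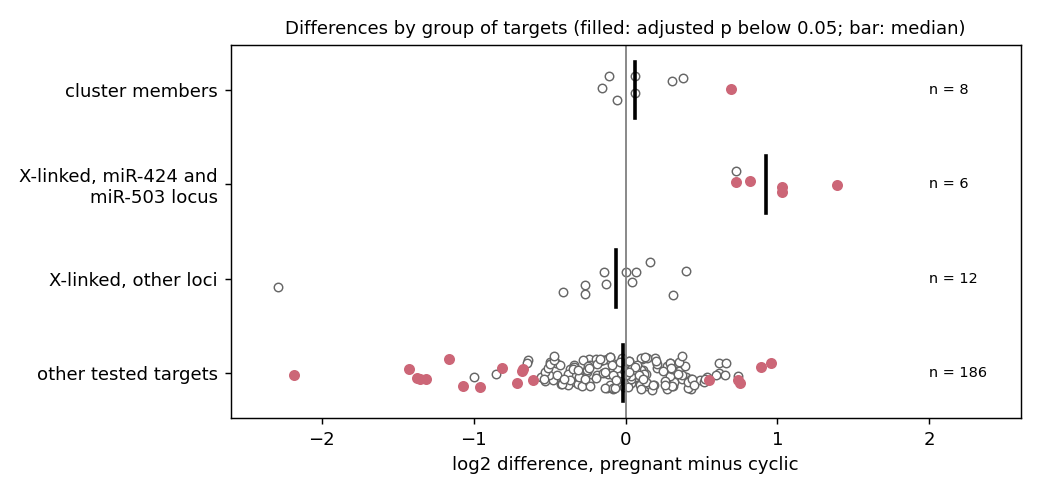
Log2 difference (x axis, pregnant minus cyclic) of the tested targets in 4 groups (y axis): 8 cluster members, 6 targets of the miR-424 and miR-503 locus, 12 other X-linked targets and the 186 remaining ones, filled where the adjusted p was below 0.05, with a bar at the median. The cluster has 1 filled point, at 0.70, and a median of 0.06, and the miR-424 and miR-503 locus has 5 filled points and a median of 0.92, or 4 filled points and 0.82 without miR-424-3p, 3 of whose cyclic arrays are at the floor.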

How the data were processed

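Each array received 100 ng of Cy3-labelled total RNA whose integrity number exceeded 8, per the labels' protocols. The deposited scanner files hold a linear intensity per spot, background-subtracted and detrended by Agilent Feature Extraction (version 10.7 in the submitters' processing notes, 10.7.3.1 per the file headers). A second deposited table gives the authors' value for each spot and array, found here to be log2, centred for every spot and running in the same direction as the scanner values (slopes 0.843 to 0.990); how the authors scaled it stays unknown. In its deposited columns for cyclic replicates 2 and 4, single cells above 100 stand among log2 values. Only these cells were taken as a score, and they were treated as missing. The other cells of both columns were used as log2 values, with slopes of 0.990 and 0.964 against the scanner values. How the authors made the score values in these columns, as deposited, is not given in the sources used here. The deposited column medians were 0.0108, −0.000283, 0.000689 and −0.000205 (cyclic 1 to 4) and −0.000302, 9.45e-05, −9.45e-05 and 0.0318 (pregnant 1 to 4). This table served as an alternative.

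Control spots (715) and outlier spots (384 to 453 per array) were left out, and the 5 to 10 spots of a probe were averaged. Detection of a probe needed a share of 0.5 or more of its spots well above background on that array, and a target was detected with any of its probes. The 75th percentile lay between 189 and 316 intensity units, and the median spread between spots of a probe was 5.46% to 6.95%. Precision is limited by the number of arrays. Group differences are from lmFit and eBayes (trend, 2-sided) of limma 3.58.1 in R 4.3.3, with files read by data.table (version 1.17.8), adjusted over 212 targets at 0.05; the fit was tested on simulated data. Intervals are 95%. Figures used Python 3.11.15 and matplotlib 3.10.9. The named targets are all members, the 5 targets most like each strand of miR-532, and of the X-linked list those that passed and the 4 with the highest mean probe signal, a rule for naming that does not order their amounts; others are named for their marker role. The members, lists, tests and alternatives were chosen with earlier results of these data known.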

Additional observations from a re-analysis of the deposited data

How the results depend on the processing

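Of the members' differences, those of miR-532-3p, miR-532-5p and bta-miR-500 kept their direction in all 28 other settings. Many of these settings could not have reversed it. The groups did not overlap for either strand of miR-532, so leaving out arrays could not change the sign. The floor settings, detection filters, variance models and replicate block left these differences unchanged. Differences near 0 changed sign: hsa-miR-362-3p was 0.24 with scaling over all probes, 0.02 with slide as a block and within slide 3, and above 0 without cyclic replicate 2 or 4. Over the fits without 1 array it ran from −0.23 to 0.05, hsa-miR-660-5p from −0.03 to 0.17 and ssc-miR-362 from −0.02 to 0.21. hsa-miR-660-5p was −0.02 with its second probe and below 0 without cyclic replicate 3 or pregnant replicate 2. ssc-miR-362 was −0.02 without scaling, −0.00068 with the mean over detected probes, −0.06 with its second probe, −0.004 with double the floor, and also below 0 without cyclic replicate 2 or 3 or pregnant replicate 4. ssc-miR-500 was 0.02 with quantile normalization, 0.02 with the authors' table and 0.15 with scaling over all probes, under which bta-miR-188 was 0.19.

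The count of targets that passed, 24, was 11 with normexp, 62 with scaling over all probes, 9 with no scaling, 10 with the total gene signal, 9 with double the floor, 11 when targets detected on at least 1 array were tested, 9 within slide 3, and 2 with scan day as a block or among the 6 arrays of 1 scan day; leaving out 1 array gave 7 to 81, the highest without cyclic replicate 1. The cause was not tested. With the replicate block 26 targets passed and miR-532-3p kept its call (0.70, limma adjusted p = 0.0465). The deviations of same-numbered arrays had correlations of 0.104, 0.0976, −0.177 and 0.160, and 4 of 8 arrays correlated best with their own number. These few values do not settle whether the numbers pair the samples. The reported fit treated the samples as unpaired. Within-array changes ran, over the fits without 1 array, from 0.27 to 0.38 for miR-532, −0.07 to 0.28 for miR-362 and 0.30 to 0.62 for miR-500, and over the other settings from 0.10 (normexp, exact permutation p = 0.2) to 0.37, from 0.05 to 0.31, and from 0.18 (normexp) to 0.73 (slide 3); miR-532 passed when targets detected on all 8 arrays were used (0.32, adjusted p = 0.0286), which leaves 1 pair. Slide or scan day as a block, slide 3 alone and the replicate block allow no exact p below 0.05. Slide as a random block and the variance models were not run on the pairs.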
